A study of Mus musculus with 10 samples.

Results

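Levels of 10 genes of the intestinal crypt (Lgr5, Ascl2, Olfm4, Smoc2, Sp5, Axin2, Nkd1, Rnf43, Znrf3 and Myc) were followed in RNA of isolated jejunal epithelial cells from 10 mice. The genes were chosen by name, as stem cell markers or targets of Wnt signalling, and all 10 are among the 35275 genes of the deposited table. The study had already reported Lgr5, Ascl2 and Sp5 as lower and Olfm4 as unaltered after Myo5b loss in these samples. Their directions here are therefore not independent evidence. Every mouse was an adult C57BL/6 animal of the genotype VillinCreERT2;MYO5Bflox/flox, in which the villin promoter drives a tamoxifen-dependent Cre recombinase in intestinal epithelial cells. Control mice 2, 4 and 5 received corn oil and no tamoxifen, so Myo5b loss and tamoxifen itself cannot be told apart. MYO5B-knockout mice 3, 5, 6 and 7 received 2 mg of tamoxifen and then a vehicle of BSA in PBS. LPA-treated MYO5B-knockout mice 1, 4 and 5 received the same dose of tamoxifen and then lysophosphatidic acid (LPA, 3 mg/kg), a signalling phospholipid. Cells were collected on day 4. One line of the description of LPA-treated mouse 1 names vehicle and the other line names LPA, and its title places it in the LPA group.

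The small intestinal epithelium is renewed from stem cells at the base of the crypts, which divide next to Paneth cells and the surrounding stroma. Wnt ligands bind Frizzled receptors with LRP5 or LRP6, β-catenin escapes its destruction complex, and TCF/LEF factors in the nucleus then switch on target genes. R-spondins strengthen the signal through LGR receptors by holding back RNF43 and ZNRF3, ubiquitin ligases that clear Frizzled from the cell surface. Several targets, among them Axin2, Nkd1, Rnf43 and Znrf3, feed back to dampen the pathway.

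Reads assigned to genes numbered 10949420 to 24470409 per mouse. Myo5b lay at 16.5 to 32.0 FPKM in control mice, 10.5 to 13.6 in MYO5B-knockout mice and 10.3 to 11.7 in LPA-treated mice. Every induced mouse was thus below every control mouse, as for 4.20% of the genes tested as described below. FPKM are fragments counted on a gene in proportion to its length and to the depth of the library, a unit that allows levels of different genes to be compared. Detected genes numbered 12242 in control mouse 2 and 12601 in MYO5B-knockout mouse 3, which stood apart from the 17309 to 18267 of the other 8. Mitochondrial genes took 17.4% and 18.0% of their reads and 1.98% to 3.50% in the others. All mice are labelled male, but Xist, a transcript of female cells, was read at 8.41 FPKM in MYO5B-knockout mouse 3 and 15.1 FPKM in LPA-treated mouse 1, both without reads of the Y-linked genes Kdm5d, Uty, Ddx3y and Eif2s3y. The 7 epithelial markers examined, such as Epcam and Vil1, were present in every group. Differences were tested with limma on log2(FPKM + 0.1) over 15729 genes whose mean reached 0.1 FPKM, a scale that understates the change of low genes, and a gene passed at a Benjamini-Hochberg adjusted p under 0.05.

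The regions just before the annotated starts of Ascl2 and Sp5 are shown because these were the genes of the 10 that passed in at least 1 of the fits described further on. Both are 250 bases long, are written 5′ to 3′ on the gene's own strand, and come from RefSeq on GRCm38.p6. Capitals mark words that TCF/LEF factors can bind, which are CTTTG followed by AA, AT, TA or TT, searched on both strands.
Ascl2 (chr7:142969265-142969514, minus strand): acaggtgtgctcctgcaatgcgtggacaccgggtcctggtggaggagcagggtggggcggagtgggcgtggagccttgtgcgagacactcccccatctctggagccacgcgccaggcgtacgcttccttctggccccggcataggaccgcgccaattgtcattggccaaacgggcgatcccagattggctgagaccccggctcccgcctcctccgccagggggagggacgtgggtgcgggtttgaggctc
Sp5 (chr2:70474673-70474922, plus strand): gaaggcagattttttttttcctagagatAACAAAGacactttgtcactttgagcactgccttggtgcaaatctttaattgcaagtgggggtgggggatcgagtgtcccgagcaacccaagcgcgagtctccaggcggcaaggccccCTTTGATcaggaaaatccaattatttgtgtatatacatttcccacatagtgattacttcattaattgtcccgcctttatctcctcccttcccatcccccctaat
The Sp5 region holds 2 of these words, beginning 222 and 104 bases before the start, the former on the opposite strand, and the Ascl2 region holds none. Of 32851 promoter windows of 300 bases, 16.9% hold at least 1 such word. Windows were found for Ascl2, Sp5, Axin2, Rnf43, Nkd1 and Olfm4, and Sp5 was the one of these 6 genes with a match. A match is a description of the letters and not evidence of binding.

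Averaged over the 10 libraries, Olfm4 was the most abundant of the genes at 43.0 FPKM, followed by Myc at 8.46, Smoc2 at 8.28 and Sp5 at 8.20. Axin2 had a mean level of 4.83 FPKM and Rnf43 4.49, and then came Ascl2 at 1.88, Znrf3 at 0.590, Lgr5 at 0.185 and Nkd1 at 0.128. Myc, Smoc2 and Sp5 differed from each other by less than their SD between libraries, which was 3.07 to 5.48 FPKM. Axin2 and Rnf43 also differed by less than theirs, 2.29 and 1.84 FPKM. The step from Sp5 to Axin2 was larger than the SD of Axin2 but smaller than that of Sp5. These means pool the 3 groups, and the order was Sp5 (13.7 FPKM), Smoc2 (10.9) and Myc (6.24) in control mice but Myc (9.67), Smoc2 (7.03) and Sp5 (5.73) in MYO5B-knockout mice. Lgr5 and Nkd1 likewise lay within each other's spread, and both rested on few reads. The range between mice was widest for Olfm4, from 2.24 to 105.7 FPKM. MYO5B-knockout mouse 3 was the lowest of the 10 libraries for 5 of the genes, and control mouse 4 the highest for 4.

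**Figure D1:**
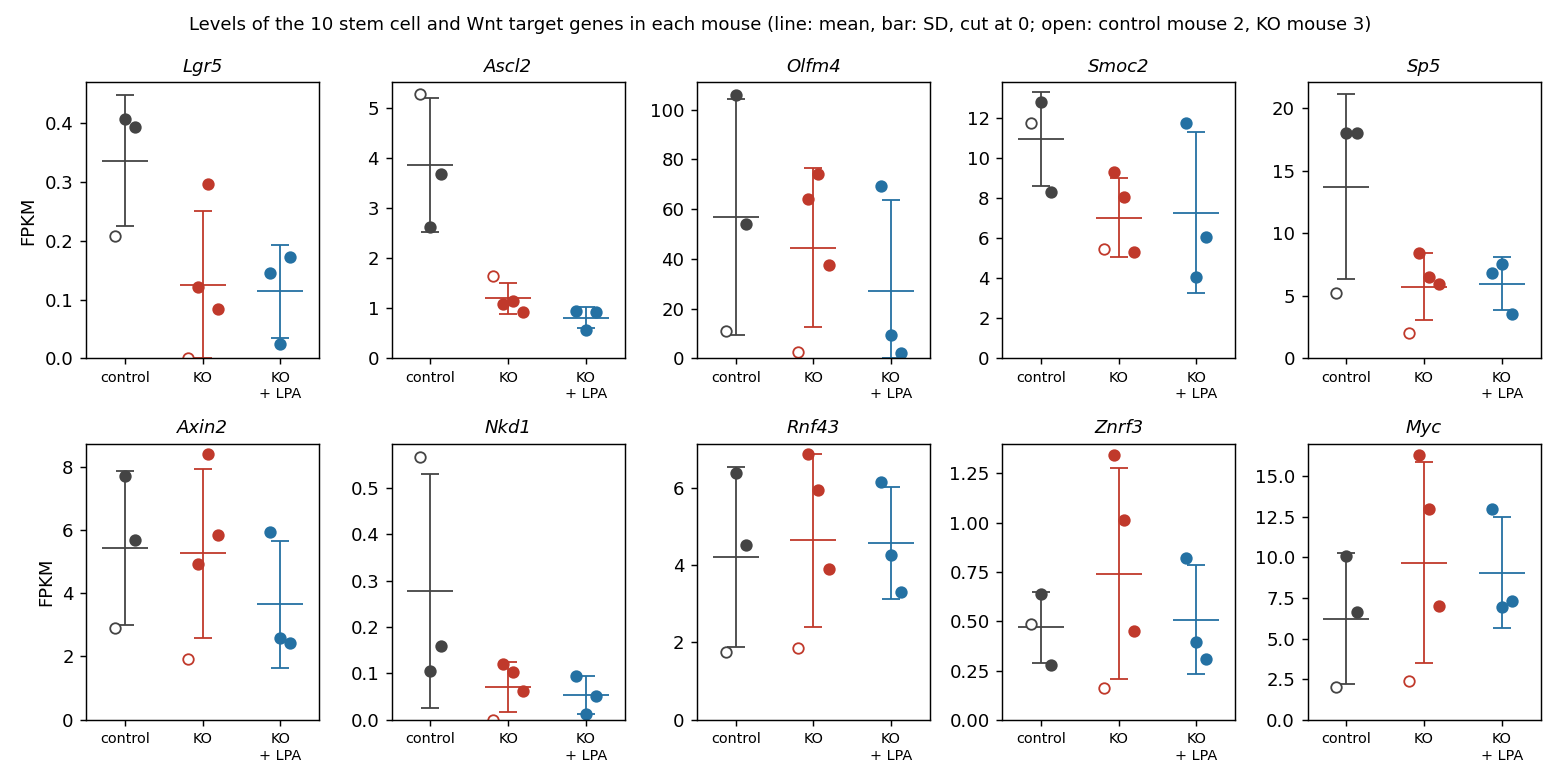
Level of each of the 10 genes in FPKM (vertical axes, each starting at 0) for every mouse of the 3 groups, with 1 point per mouse, the group mean as a line and the SD as a bar cut at 0 (KO, MYO5B-knockout). Open points mark the libraries with 12242 and 12601 genes detected, control mouse 2 and MYO5B-knockout mouse 3. For Ascl2 all 7 induced mice lie below the lowest control mouse at 2.62 FPKM, whereas the other 9 genes overlap between control and induced mice.

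Ascl2 (ENSMUSG00000009248, chromosome 7 from 142966822 to 142969264 on the minus strand of GRCm38) encodes a transcription factor that maintains crypt stem cells and is itself a Wnt target. Control mice 2, 4 and 5 had 5.28, 2.62 and 3.68 FPKM. The levels in MYO5B-knockout mice 3, 5, 6 and 7 were 1.64, 1.08, 1.15 and 0.935 FPKM. LPA-treated mice 1, 4 and 5 had 0.938, 0.574 and 0.931 FPKM. All 7 induced mice thus lay below all 3 control mice, and the lowest control level was 1.59 times the highest induced level. Of all genes tested, 12.4% separated the groups in this way, 4.20% lower and 8.24% higher in induced mice, and none of the other 9 genes did.

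Between LPA-treated and control mice Ascl2 fell, with a log2 fold change of -2.09 (SE 0.46, limma's adjusted p = 0.0471), and it was the single gene of the 10 to pass. In this comparison 2.32% of all genes passed, 0.776% lower and 1.54% higher. The call was held with MYO5B-knockout mouse 3 left out (adjusted p = 0.0278) and was lost in the other 9 fits that left out a mouse, with adjusted p from 0.0704 to 0.162 by limma. On reads, edgeR gave an adjusted p of 0.0512 and DESeq2 0.000273. Between MYO5B-knockout and control mice the log2 fold change of Ascl2 was -1.58 (SE 0.43, limma's adjusted p = 0.0898), and DESeq2 on reads gave an adjusted p of 0.00605. With control mouse 2 and MYO5B-knockout mouse 3 left out, it was -1.48 between these groups (limma's adjusted p = 0.0537, and 0.0463 where the filter on low values was recomputed over the 8 libraries left). The same 8 libraries gave -1.84 between LPA-treated and control mice (limma's adjusted p = 0.0226). These comparisons share their control mice. In bulk RNA, fewer cells that express a gene and less RNA per cell cannot be told apart, which applies to every level given here.

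Lgr5 (ENSMUSG00000020140, chromosome 10 from 115450311 to 115587780) encodes the R-spondin receptor that marks the dividing stem cells at the crypt base. Its levels were 0.208, 0.407 and 0.393 FPKM in control mice 2, 4 and 5. MYO5B-knockout mice 3, 5, 6 and 7 had 0, 0.121, 0.296 and 0.0832 FPKM, and LPA-treated mice 1, 4 and 5 had 0.145, 0.0241 and 0.172 FPKM. MYO5B-knockout mouse 6 reached the control range, whereas the LPA-treated mice lay below all control mice, as for 6.38% of all genes tested. The levels rest on 11 to 33 reads in control mice, 0 to 29 in MYO5B-knockout mice and 2 to 17 in LPA-treated mice, and a count of 0 allows up to 3 reads by counting error alone. The log2 fold changes from control of -1.09 (SE 0.57) and -1.07 (SE 0.61) did not pass (limma's adjusted p = 0.360 and 0.416).

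Olfm4 (ENSMUSG00000022026, chromosome 14 from 80000302 to 80021930) encodes olfactomedin 4, a secreted glycoprotein of stem and progenitor cells. The study describes its expression as governed by Notch and not by Wnt. Control mice 2, 4 and 5 had 10.9, 105.7 and 54.1 FPKM. The level was 2.45 FPKM in MYO5B-knockout mouse 3 and 64.1, 74.3 and 37.4 FPKM in mice 5, 6 and 7. LPA-treated mouse 1 had 69.3 FPKM, and mice 4 and 5 had 9.30 and 2.24 FPKM. Each group therefore held at least 1 high and 1 low mouse, and the groups overlapped. The log2 fold change from control was -0.62 (95% interval -3.66 to 2.43) in MYO5B-knockout mice and -1.79 (-5.04 to 1.46) in LPA-treated mice, neither of which passed (limma's adjusted p = 0.855 and 0.568). With a mouse left out, the former ranged from -1.54 to 0.50.

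Smoc2 (ENSMUSG00000023886, chromosome 17 from 14279506 to 14404790) encodes a secreted calcium-binding matrix protein of the LGR5 stem cell signature. Control mice 2, 4 and 5 had 11.7, 12.8 and 8.29 FPKM. The Smoc2 level of MYO5B-knockout mice 3, 5, 6 and 7 was 5.48, 9.30, 8.04 and 5.31 FPKM, and LPA-treated mice 1, 4 and 5 had 11.8, 4.04 and 6.04 FPKM. MYO5B-knockout mouse 5 and LPA-treated mouse 1 lay within the control range and the other 5 induced mice below it. The log2 fold changes from control were -0.65 (SE 0.41) and -0.69 (SE 0.43), and neither passed (limma's adjusted p = 0.444 and 0.453). Fibroblasts can express Smoc2 as well, and the summed level of 12 stromal markers was 4.40 to 7.91 FPKM in control mice, 3.19 to 5.49 in MYO5B-knockout mice and 6.42 to 14.0 in LPA-treated mice, with Grem1 at 0 in the LPA-treated mice. The part of stromal RNA in the Smoc2 levels was not tested.

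Sp5 (ENSMUSG00000075304, chromosome 2 from 70474923 to 70477729), whose upstream region is shown above, encodes a zinc finger factor of the Sp family induced by β-catenin. It was present at 18.0 FPKM in both control mice 4 and 5 and at 5.22 FPKM in control mouse 2. MYO5B-knockout mice 3, 5, 6 and 7 had 2.04, 8.40, 6.52 and 5.95 FPKM. LPA-treated mice 1, 4 and 5 had 6.85, 7.51 and 3.54 FPKM. The 7 induced mice all lay below control mice 4 and 5, and overlapped with the controls through control mouse 2. With all libraries the log2 fold changes from control were -1.21 (SE 0.59) in MYO5B-knockout mice and -1.06 (SE 0.63) in LPA-treated mice, which did not pass (limma's adjusted p = 0.316 and 0.428). Once control mouse 2 and MYO5B-knockout mouse 3 were left out, they were -1.37 and -1.65 (limma's adjusted p = 0.0628 and 0.0298). With the filter recomputed over the 8 libraries left, limma gave adjusted p-values of 0.0466 and 0.0195. On the reads of all libraries, DESeq2 gave adjusted p-values of 0.00782 and 0.0233, and edgeR 0.0703 and 0.118.

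Myc (ENSMUSG00000022346, chromosome 15 from 61985341 to 61990374), which encodes a transcription factor of growth and proliferation, had its highest levels in induced mice. Control mice 2, 4 and 5 had 2.01, 10.1 and 6.64 FPKM. The Myc levels of MYO5B-knockout mice 3, 5, 6 and 7 were 2.37, 16.3, 13.0 and 7.01 FPKM, and those of LPA-treated mice 1, 4 and 5 were 13.0, 6.92 and 7.28 FPKM. The groups overlapped, and the 2 lowest levels were those of control mouse 2 and MYO5B-knockout mouse 3. Log2 fold changes from control were 0.58 (95% interval -0.98 to 2.13) and 0.74 (-0.92 to 2.41), and neither passed (limma's adjusted p = 0.712 and 0.648).

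Axin2 (ENSMUSG00000000142, chromosome 11 from 108920349 to 108950783) encodes a scaffold of the β-catenin destruction complex and is widely read as a gauge of Wnt signalling. Its levels were 2.89, 7.72 and 5.68 FPKM in control mice 2, 4 and 5 and 1.91, 4.93, 8.39 and 5.83 FPKM in MYO5B-knockout mice 3, 5, 6 and 7. LPA-treated mouse 1 had 5.95 FPKM, whereas mice 4 and 5 had 2.58 and 2.41 FPKM. MYO5B-knockout mice thus spanned the control range, and 2 of 3 LPA-treated mice lay just under it. The log2 fold change was -0.11 between MYO5B-knockout and control mice (95% interval -1.37 to 1.14, limma's adjusted p = 0.942) and -0.58 between LPA-treated and control mice (-1.92 to 0.76, limma's adjusted p = 0.663). Both intervals reach past 0 on either side, and the first runs beyond 1 on the log2 scale in both directions.

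Nkd1 (ENSMUSG00000031661, chromosome 8 from 88521344 to 88594887), whose product binds Dishevelled and limits the signal, was the lowest of the genes. Control mice 2, 4 and 5 had 0.567, 0.105 and 0.159 FPKM, while MYO5B-knockout mice 3, 5, 6 and 7 had 0, 0.121, 0.102 and 0.0617 FPKM and LPA-treated mice 1, 4 and 5 had 0.0947, 0.0134 and 0.0522 FPKM. The LPA-treated mice lay below all control mice, as for 6.38% of all genes tested, but no library other than control mouse 2 held more than 12 reads. Log2 fold changes from control of -1.0 (SE 0.55) and -1.13 (SE 0.59) did not pass (limma's adjusted p = 0.377 and 0.372). They shrank to -0.25 and -0.62 when control mouse 2 and MYO5B-knockout mouse 3 were left out.

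Rnf43 and Znrf3, the ligases that clear Frizzled, did not separate the groups. Rnf43 (ENSMUSG00000034177, chromosome 11 from 87662722 to 87735539) had 1.74, 6.37 and 4.52 FPKM in control mice 2, 4 and 5. MYO5B-knockout mice 3, 5, 6 and 7 had 1.84, 6.88, 5.94 and 3.89 FPKM, and LPA-treated mice 1, 4 and 5 had 6.13, 4.26 and 3.31 FPKM. The groups overlapped throughout, with log2 fold changes from control of 0.16 (95% interval -1.08 to 1.40) and 0.25 (-1.08 to 1.58) that turned to -0.12 and -0.11 after libraries were scaled by median ratios. Znrf3 (ENSMUSG00000041961, chromosome 11 from 5276324 to 5444847) had 0.488, 0.638 and 0.281 FPKM in control mice 2, 4 and 5. It reached 1.34 and 1.02 FPKM in MYO5B-knockout mice 5 and 6, with 0.159 and 0.450 FPKM in mice 3 and 7 and 0.822, 0.394 and 0.309 FPKM in LPA-treated mice 1, 4 and 5. Its log2 fold changes from control were 0.33 (95% interval -1.13 to 1.80) and 0.06 (-1.51 to 1.62), the latter being -0.26 with that scaling, and neither gene passed against control (limma's adjusted p from 0.832 to 0.979). Reads of Rnf43 overlap those of 1110028F11Rik on the same strand, a gene with 9.25% as many reads, and those of Lgr5 overlap A930009A15Rik on the other strand (3.29% as many reads). Whether counting used strand is not stated.

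Over the 10 genes, the log2 fold change between MYO5B-knockout and control mice was below 0 for 7, with a median of -0.63, where the median of all genes tested was 0.29 and 36.6% were below 0. None of the 10 passed in limma (1, Ascl2, at an unadjusted p under 0.05, against 17.6% of all genes) or in edgeR, and of all genes tested 2.01% passed in limma, 0.884% lower. DESeq2 passed Ascl2 and Sp5, among 1756 of the 22286 genes it tested. Groups did not overlap for Ascl2 alone, as for 17.2% of all genes, 6.20% lower. Between LPA-treated and control mice the median of the 10 genes was -0.88 against 0.41 over all genes, with 7 below 0 where 30.0% of all genes were. Ascl2, Lgr5 and Nkd1 did not overlap there, lower in each case, compared with 26.9% of all genes, 20.5% higher and 6.38% lower. Scaling by the median of ratios brought the median of all genes to 0.04 and 0.10 and those of the 10 genes to -0.92 and -1.19, with 8 and 9 of 10 below 0. With these 2 mice, control 2 and MYO5B-knockout 3, left out, the medians of the 10 genes were -0.34 and -0.80. These counts and medians are a description of the 10 genes.

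**Figure D2:**
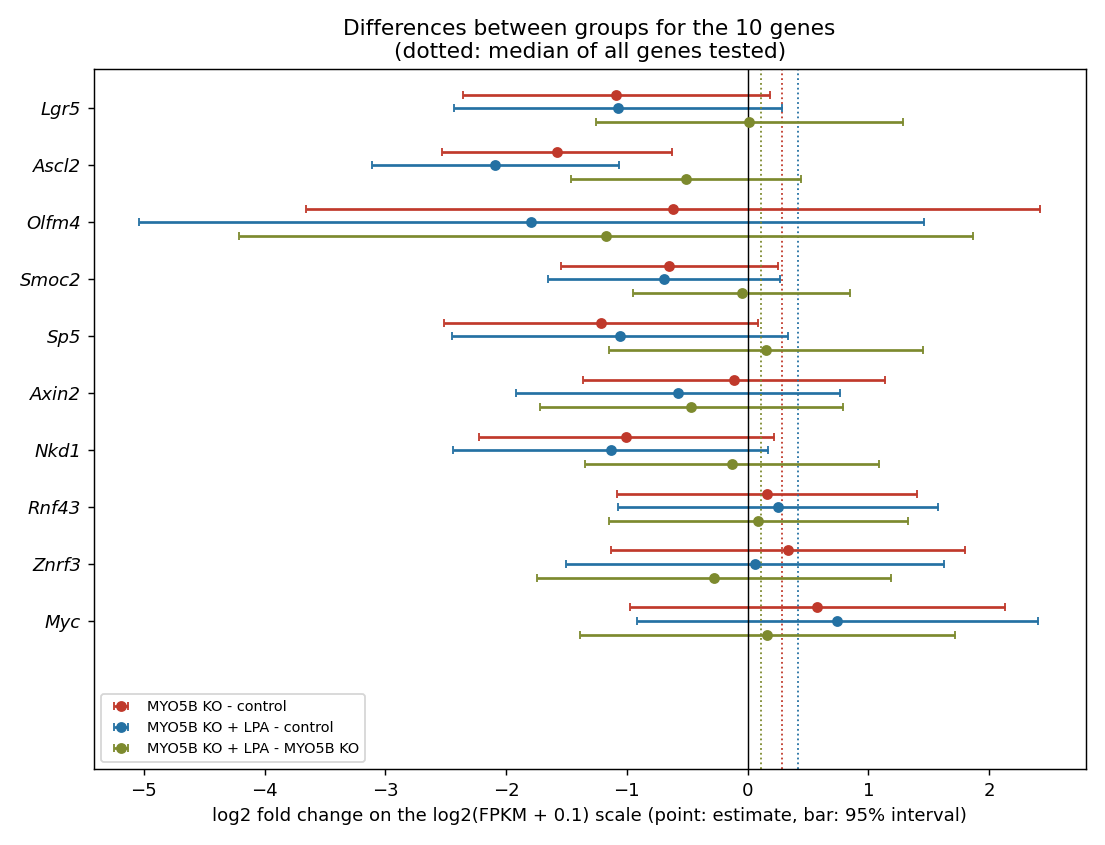
Log2 fold change of each of the 10 genes on the log2(FPKM + 0.1) scale (horizontal axis) in the 3 comparisons between groups, with the limma estimate as a point, its 95% interval as a bar and the median of all genes tested as a dotted line in the colour of the comparison. The intervals of Ascl2 lie below 0 against control, from -2.53 to -0.62 in MYO5B-knockout mice and from -3.11 to -1.07 in LPA-treated mice, and those of the other 9 genes include 0.

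Whether LPA moved these genes in MYO5B-knockout mice was asked by comparing the LPA-treated with the vehicle-treated animals, which are shared with the first comparison. No gene of the 10 passed in limma, edgeR or DESeq2, and none had an unadjusted p under 0.05. Among all genes tested 0% passed in limma, 0 passed in edgeR and 5 passed in DESeq2, and 459 (2.92%) had an unadjusted limma p under 0.05. Ascl2 had a log2 fold change of -0.51 (95% interval -1.47 to 0.44) and Sp5 of 0.15 (-1.15 to 1.45). Lgr5 had 0.02 (-1.26 to 1.29), Smoc2 -0.05 (-0.94 to 0.85) and Olfm4 -1.17 (-4.22 to 1.87). The other 5 genes had log2 fold changes of -0.46 (Axin2), 0.09 (Rnf43), -0.28 (Znrf3), -0.13 (Nkd1) and 0.17 (Myc). The signs of Lgr5, Sp5, Rnf43 and Myc turned when control mouse 2 and MYO5B-knockout mouse 3 were dropped. The estimate was below 0 for 6 of the 10, where 39.3% of all genes were, and most intervals reach past 1 on the log2 scale in at least 1 direction, so the groups were not shown to be alike. The groups overlapped for all 10 genes, and 4.16% of the genes tested did not overlap (3.56% higher, 0.604% lower).

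Upstream of the target genes, Wnt ligands were scarce in these isolated epithelial cells. The 12 stromal markers summed to at most 14.0 FPKM in any mouse, and the stroma itself was not sampled. Of 19 listed ligands 7 had levels high enough to test and none passed in limma or edgeR in any comparison. Their median log2 fold changes from control were -0.13 and -0.25, and 4 of 7 in MYO5B-knockout and 2 of 7 in LPA-treated mice had an unadjusted p under 0.05, in both directions, as did 17.6% and 16.4% of all genes tested. Wnt3, a Paneth cell ligand, had 0.677, 0.633 and 0.520 FPKM in control mice 2, 4 and 5 and 0.445, 0.264, 0.430 and 0.216 FPKM in MYO5B-knockout mice 3, 5, 6 and 7. These groups did not overlap for Wnt3, as for 17.2% of all genes tested, 6.20% lower. The LPA-treated mice 1, 4 and 5 reached the controls with 0.359, 0.132 and 0.561 FPKM. The log2 fold change of Wnt3 was -0.73 (SE 0.51) between MYO5B-knockout and control mice (limma's adjusted p = 0.497). By quantitative PCR on isolated jejunal cells, the study reported Wnt3 and Wnt6 as significantly lower after Myo5b loss. Both are named here for that reason, and whether the same mice were used is not stated.

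Wnt6, another epithelial ligand, had 0.525, 0.408 and 1.19 FPKM in control mice 2, 4 and 5. MYO5B-knockout mice 3, 5, 6 and 7 had 0, 0.252, 0.213 and 0.321 FPKM, and LPA-treated mice 1, 4 and 5 had 0.395, 0.251 and 0.181 FPKM. All 7 induced mice lay below the control mice for Wnt6, as for 4.20% of all genes tested. The log2 fold change was -1.51 (SE 0.62, limma's adjusted p = 0.243) in MYO5B-knockout mice and -1.02 (SE 0.66, limma's adjusted p = 0.471) in LPA-treated mice, and DESeq2 on reads gave adjusted p-values of 0.0337 and 0.155. Of the ligands tested, Wnt9a and Wnt11 lay above the control mice in all 7 induced mice, as did 8.24% of all genes tested. DESeq2 also passed Wnt11 in MYO5B-knockout mice, higher, and Wnt4 in LPA-treated mice, lower (adjusted p = 0.0307 and 0.0219). These 3 genes are named after their values were seen. Wnt9b had at most 12 reads in any library and was not tested. Rspo1, Rspo2, Rspo3 and Rspo4, the R-spondins, held 0 to 5 reads in every library, and Wls, the carrier that brings Wnt proteins to the cell surface, had log2 fold changes of 0.002 (SE 0.83) and 0.11 (SE 0.88) from control.

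None of 11 receptors tested passed in limma or edgeR, with median log2 fold changes from control of 0.33 and 0.24 that became 0.07 and -0.13 after scaling by the median of ratios. Lrp5, a co-receptor, lay at 5.68 ± 3.67 FPKM (SD, n = 3) in control mice, 10.2 ± 5.13 (SD, n = 4) in MYO5B-knockout mice and 7.92 ± 4.92 (SD, n = 3) in LPA-treated mice. Lgr4, the broadly expressed R-spondin receptor, lay at 9.35 ± 6.51, 13.7 ± 5.28 and 12.4 ± 2.87 FPKM in the same order. The log2 fold changes between MYO5B-knockout and control mice were 0.91 (SE 0.75) for Lrp5 and 0.84 (SE 0.62) for Lgr4 (limma's adjusted p = 0.570 and 0.521). Lrp6 lay at 4.19 ± 1.19 FPKM (SD, n = 3) in control and 6.63 ± 0.101 (SD, n = 3) in LPA-treated mice, with a log2 fold change of 0.69 (SE 0.37, limma's adjusted p = 0.391). These groups did not overlap for Lrp6, as for 26.9% of all genes tested, 20.5% higher. At an unadjusted p under 0.05, as for 17.6% of all genes, stood 2 of the 11, Fzd6, at 0.185 ± 0.162 FPKM (SD, n = 3) in control and 1.23 ± 0.872 (SD, n = 4) in MYO5B-knockout mice, and Fzd2, at 0.564 ± 0.199 and 0.108 ± 0.106 FPKM, both Frizzled receptors named after their values were seen. They passed in DESeq2 on reads (adjusted p = 0.0208 and 0.00910).

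In the destruction complex and its partners, none of 12 genes tested passed in limma or edgeR, and the median log2 fold changes from control were 0.30 and 0.28, against 0.29 and 0.41 over all genes. The nearest was Tnks2, a tankyrase that marks Axin for degradation, at 10.5 ± 1.19 FPKM (SD, n = 3) in control mice, 23.5 ± 5.18 (SD, n = 4) in MYO5B-knockout mice and 23.4 ± 4.35 (SD, n = 3) in LPA-treated mice. Induced mice were all above the control mice for Tnks2, as for 8.24% of all genes tested. Its log2 fold changes of 1.14 (SE 0.28) and 1.14 (SE 0.29) missed the threshold (limma's adjusted p = 0.0639 and 0.0793). DESeq2 on reads gave 0.0295 and 0.107. Ctnnb1, which encodes β-catenin itself, ranged widely, from 9.42 FPKM in control mouse 2 and 23.2 in MYO5B-knockout mouse 3 to 238.3 in LPA-treated mouse 1, with 95.4 ± 75.5 FPKM (SD, n = 3) in control and 153.8 ± 96.7 (SD, n = 3) in LPA-treated mice (log2 fold change 1.16, SE 1.14, limma's adjusted p = 0.638). Dvl3, a Dishevelled that relays the signal from Frizzled, lay at 2.90 ± 1.25 FPKM (SD, n = 3) in control and 5.94 ± 2.64 (SD, n = 4) in MYO5B-knockout mice (log2 fold change 1.02, SE 0.54, limma's adjusted p = 0.360). Between the induced groups, among genes of at least 1 FPKM, the largest differences were -0.52 (SE 0.78) for Tnks, the other tankyrase, and -0.36 (SE 0.54) for Dvl3.

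Of the nuclear factors, Tle3 fell in both induced groups and was the single gene of 9 tested to pass, where the median log2 fold change of the 9 was 0.12 and 0.25 and 0.884% and 0.776% of all genes passed lower. It encodes a Groucho-type co-repressor that TCF factors recruit in the absence of β-catenin. For Tle3, control mice 2, 4 and 5 had 12.6, 17.3 and 15.2 FPKM. Its level was lower in each induced mouse, where MYO5B-knockout mice 3, 5, 6 and 7 had 2.16, 2.99, 3.92 and 4.64 FPKM, and LPA-treated mice 1, 4 and 5 had 2.38, 1.41 and 2.42 FPKM. No induced mouse came near the lowest control mouse. The log2 fold change was -2.14 (SE 0.37, limma's adjusted p = 0.0218) in MYO5B-knockout mice and -2.83 (SE 0.40, limma's adjusted p = 0.00724) in LPA-treated mice, and the gene passed in edgeR and DESeq2 as well. With a mouse left out, Tle3 passed in 10 of 10 fits for the latter and in 6 of 10 for the former, where it was lost without control mouse 4 or 5 or MYO5B-knockout mouse 5 or 6 (limma's adjusted p from 0.0553 to 0.113). Between the induced groups the largest differences among nuclear factors of at least 1 FPKM were those of Tle3 (-0.68, SE 0.37) and Bcl9, a β-catenin co-activator (0.54, SE 0.88), and neither passed.

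Secreted inhibitors were low, with 4 of 13 tested, none passing in limma with all libraries, and median log2 fold changes from control of -1.06 and 0.05. Sfrp5, which encodes a secreted Frizzled-related protein and is named after its values were seen, had 1.33, 1.20 and 1.14 FPKM in control mice 2, 4 and 5. Among induced mice, MYO5B-knockout mice 3, 5, 6 and 7 had 0.721, 0.0305, 0.0515 and 0.0467 FPKM, and LPA-treated mice 1, 4 and 5 had 0, 0.152 and 0 FPKM. All induced mice lay below the control mice for Sfrp5, as for 4.20% of all genes tested. The 28 to 38 reads of the control libraries compare with 0 to 5 reads in induced mice other than MYO5B-knockout mouse 3, which held 15. The log2 fold changes of -2.58 (SE 0.70) and -3.28 (SE 0.75) did not pass (limma's adjusted p = 0.0897 and 0.0536). In the 8 libraries left after dropping control mouse 2 and MYO5B-knockout mouse 3, they were -3.15 and -3.22 (limma's adjusted p = 0.0169 and 0.00969). With reads, edgeR gave adjusted p-values of 0.331 and 0.171 for Sfrp5, and DESeq2 0.251 and 0.0222. Dkk4, another secreted inhibitor named after its values were seen, had 0 to 1.34 FPKM in control and 0 to 0.133 in MYO5B-knockout mice, which overlapped. The log2 fold change of Dkk4 between them was -1.79 (limma's adjusted p = 0.303). In the same 8 libraries it was -2.78 (limma's adjusted p = 0.0186). DESeq2 on all reads gave an adjusted p of 0.0241, and edgeR did not test Dkk4.

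Of 15 other Wnt target genes tested, 14 had a log2 fold change above 0 between MYO5B-knockout and control mice, with a median of 0.78, and 13 did between LPA-treated and control mice, with a median of 0.76, where 36.6% and 30.0% of all genes lay below 0. In the first comparison 2 passed, Etv4 and Etv5, and in the other 3 passed, Etv4, Cd44 and Ephb3, all higher in induced mice, where 1.13% and 1.54% of all genes passed higher. Between LPA-treated and MYO5B-knockout mice none passed in limma, edgeR or DESeq2 and none had an unadjusted p under 0.05. The largest differences there among genes of at least 1 FPKM were those of Ccnd1, a cyclin of the G1 phase, at 5.42 ± 6.25 FPKM (SD, n = 3) in LPA-treated and 12.3 ± 7.64 (SD, n = 4) in MYO5B-knockout mice, and Ephb3 (log2 fold changes -1.45 and 0.91). After scaling by the median of ratios, the list's medians from control were 0.62 and 0.45, with 2 and 4 of the 15 below 0.

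Etv4 and Etv5 encode ETS factors that also answer to growth factor signalling through ERK. For Etv4, control mice 2, 4 and 5 had 0.945, 0.624 and 0.334 FPKM, while MYO5B-knockout mice 3, 5, 6 and 7 had 11.6, 16.9, 6.44 and 3.72 FPKM and LPA-treated mice 1, 4 and 5 had 12.5, 5.55 and 11.8 FPKM. Its log2 fold changes were 3.60 (SE 0.57, limma's adjusted p = 0.0146) and 3.78 (SE 0.61, limma's adjusted p = 0.0126). Control and induced mice did not overlap, as for 12.4% of all genes tested, 8.24% higher. The call was lost without control mouse 4 or 5 in the former comparison and without control mouse 5 or LPA-treated mouse 1 or 5 in the latter (limma's adjusted p from 0.0591 to 0.0863). Etv5 rose by 3.01 (SE 0.64, limma's adjusted p = 0.0448) in MYO5B-knockout mice, a call lost in each of 10 fits that left out a mouse (limma's adjusted p from 0.0509 to 0.144), and the 2.91 (SE 0.69) in LPA-treated mice did not pass (limma's adjusted p = 0.0583).

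Cd44, a hyaluronan receptor of crypt cells, had 2.84, 1.93 and 1.25 FPKM in control mice 2, 4 and 5 and 8.48, 5.67 and 8.77 FPKM in LPA-treated mice 1, 4 and 5. The Cd44 levels of MYO5B-knockout mice 3, 5, 6 and 7 were 9.97, 7.18, 6.08 and 4.71 FPKM. Ephb3, a receptor tyrosine kinase that places cells along the crypt, had 1.56, 1.22 and 0.662 FPKM in control mice, 3.04, 2.93, 2.10 and 1.93 in MYO5B-knockout mice and 4.33, 3.60 and 6.70 in LPA-treated mice, in the same order. Neither gene overlapped between control and induced mice, as for 12.4% of all genes tested, 8.24% higher. The log2 fold changes of 1.92 (SE 0.42) for Cd44 and 2.02 (SE 0.46) for Ephb3 between LPA-treated and control mice passed narrowly (limma's adjusted p = 0.0471 and 0.0496), were lost after scaling by the median of ratios (0.170 and 0.139), and were kept when either control mouse 2 or MYO5B-knockout mouse 3 was left out, but in none of the 8 other such fits (limma's adjusted p from 0.0662 to 0.221). Tgif1, a homeodomain repressor that the study picked from these samples and that is therefore no independent evidence, had log2 fold changes of 1.31 (SE 0.36) and 1.53 (SE 0.38) and missed the threshold (limma's adjusted p = 0.0903 and 0.0726).

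Among 23 other crypt stem cell genes tested, Mecom alone passed, higher in both induced groups, where 1.13% and 1.54% of all genes passed higher. It encodes a zinc finger transcription factor, and the study chose it, with Arid5b, on these samples, so its direction is not independent evidence. For Mecom, control mice 2, 4 and 5 had 1.34, 1.28 and 0.873 FPKM, while MYO5B-knockout mice 3, 5, 6 and 7 had 6.10, 9.11, 7.03 and 4.15 FPKM and LPA-treated mice 1, 4 and 5 had 8.23, 7.49 and 5.45 FPKM. Its log2 fold changes were 2.37 (SE 0.37, limma's adjusted p = 0.0146) and 2.5 (SE 0.40, limma's adjusted p = 0.0123), and edgeR gave 0.0177 and 0.0184. With limma the first was lost without control mouse 4 or 5 or MYO5B-knockout mouse 5 or 6, and the other without control mouse 5 or LPA-treated mouse 1 or 4 (adjusted p from 0.0535 to 0.0920). Arid5b, a chromatin-binding factor, had 0 to 0.116 FPKM in control mice and 0.183 to 0.730 FPKM in MYO5B-knockout mice, with log2 fold changes of 1.75 (SE 0.64, limma's adjusted p = 0.187) and 1.32 (SE 0.68, limma's adjusted p = 0.366) in the MYO5B-knockout and LPA-treated mice. The list's median log2 fold change from control was 0.24 and 0.44, with 16 of 23 above 0 in both, against 0.29 and 0.41 over all genes. Between LPA-treated and MYO5B-knockout mice its largest differences among genes of at least 1 FPKM were those of Pdgfa, a growth factor, at 51.1 ± 15.6 FPKM (SD, n = 3) against 26.7 ± 4.95 (SD, n = 4), and Hopx, a homeodomain protein of reserve stem cells, at 37.5 ± 13.3 against 25.2 ± 8.44 FPKM. Neither passed (limma's adjusted p = 1 for both).

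**Figure D3:**
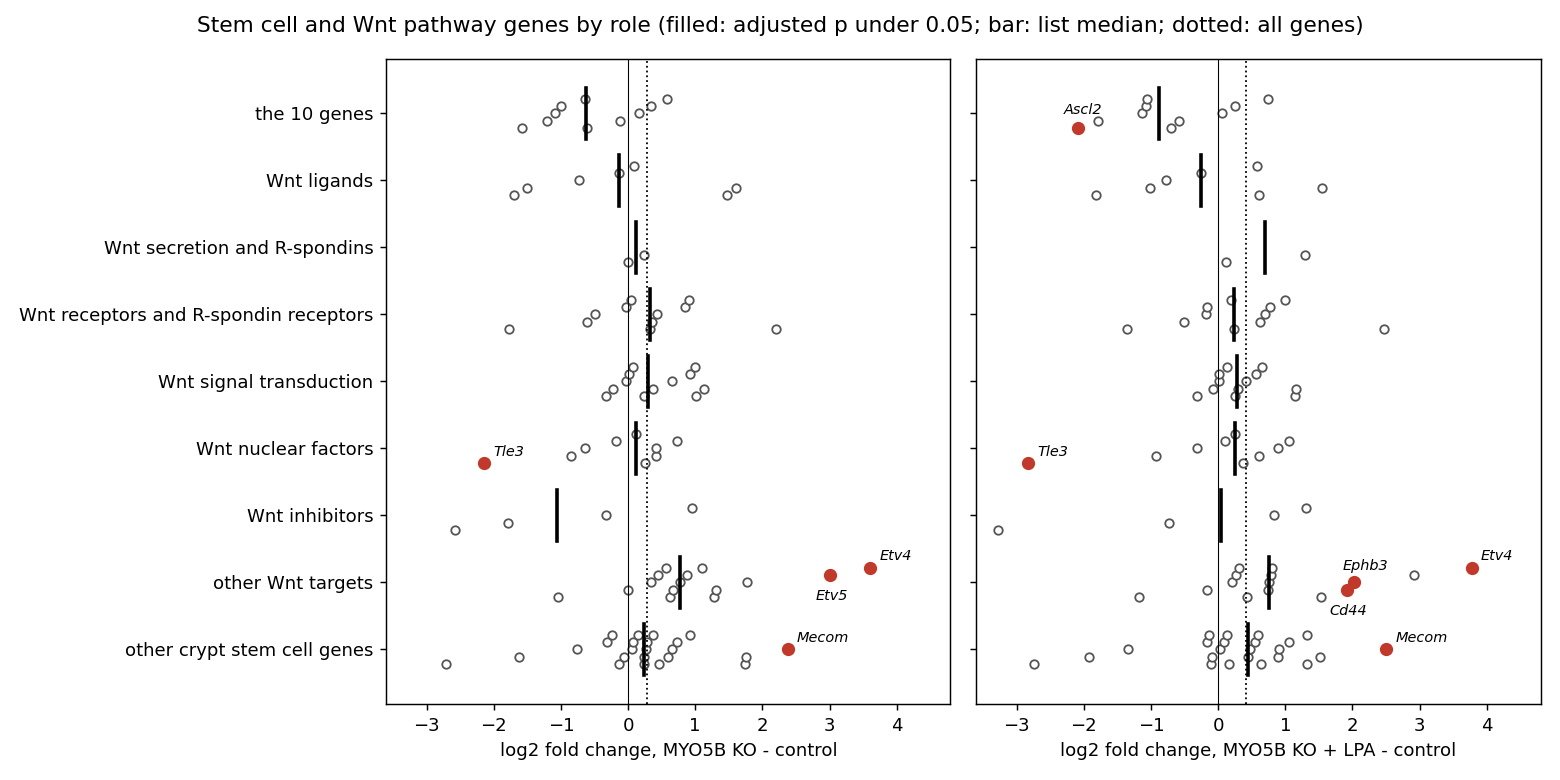
Log2 fold change on the log2(FPKM + 0.1) scale (horizontal axes) of each tested gene of the lists named on the vertical axis, for MYO5B-knockout against control mice (left) and LPA-treated MYO5B-knockout against control mice (right), which share their control mice. Filled points passed an adjusted p of 0.05, bars are list medians and the dotted line is the median of all genes. The median of the 10 genes lies at -0.63 and -0.88, and that of the other Wnt targets at 0.78 and 0.76.

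Markers of other cell types and states were read in the same libraries. The summed level of 18 proliferation genes was 172 to 197 FPKM in control mice, 367 to 584 in MYO5B-knockout mice and 239 to 498 in LPA-treated mice, so that induced and control mice did not overlap. All 18 had a log2 fold change above 0 from control in both induced groups, with medians of 1.28 and 0.85. Rrm2, a subunit of ribonucleotide reductase, passed in each, where 1.13% and 1.54% of all genes passed higher. The 10 Paneth cell genes, of which Mmp7 is also among the other Wnt targets, summed to 4139 to 10986 FPKM in control mice, 3862 to 6634 in MYO5B-knockout mice and 1154 to 4469 in LPA-treated mice. Their median log2 fold change from control was -0.21 and -1.82, and none passed in limma (6 of 10 at an unadjusted p under 0.05 in LPA-treated mice, against 16.4% of all genes, 1 by edgeR and 5 by DESeq2). In that comparison DESeq2 passed 1475 of the 22286 genes it tested. Enterocyte genes (15) summed to 32139 to 42807, 14672 to 27208 and 23057 to 44006 FPKM in the 3 groups. Fabp1, Apoa1 and Fabp2 made up most of these sums. Fabp1 had means of 9717, 7399 and 15748 FPKM in the 3 groups, and Apoa1 12460, 6054 and 7584 FPKM. Gene by gene, 12 and 11 of the 15 had a log2 fold change below 0 from control (medians -0.995 and -0.980), and 3 and 4 above 0. Of all genes tested, 36.6% and 30.0% lay below 0. Against control, 2 of 15 passed, lower, in MYO5B-knockout and 3 in LPA-treated mice, where 0.884% and 0.776% of all genes passed lower. Leukocyte genes (12) summed to 1658 to 3233 FPKM in control mice, 62.2 to 1135 in MYO5B-knockout mice and 156 to 290 in LPA-treated mice, and 2 of 11 tested passed, lower, in each, against the same 0.884% and 0.776% of all genes. Most of these sums came from Cd74, with means of 1690, 296 and 142 FPKM in the 3 groups, and H2-Ab1, with 926, 113 and 57.4 FPKM. Of the 11 leukocyte genes tested, 9 and 8 had a log2 fold change below 0 from control (medians -2.02 and -0.84), and 2 and 3 above 0. The shares of all genes below 0 were again 36.6% and 30.0%. Notch target genes (5, with Hes5 at 0 in control and LPA-treated mice) summed to 29.8 to 34.3, 18.2 to 54.4 and 29.9 to 40.6 FPKM, and neither they nor the 12 stromal or 7 epithelial genes held one that passed. The part of these shifts in the levels of the 10 genes was not tested.

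**Figure D4:**
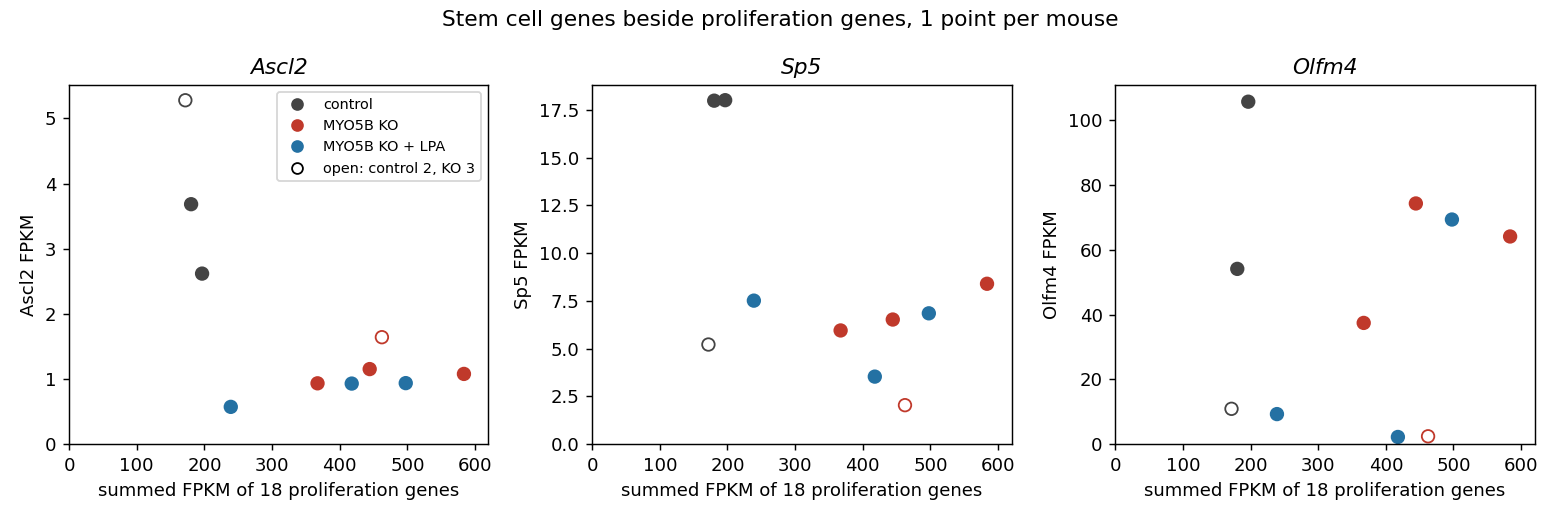
FPKM of Ascl2, Sp5 and Olfm4 (vertical axes) against the summed FPKM of 18 proliferation genes (horizontal axes), with 1 point per mouse coloured by group and open points for control mouse 2 and MYO5B-knockout mouse 3. Control mice lie at 172 to 197 FPKM of proliferation genes with Ascl2 at 2.62 FPKM or above, and induced mice at 239 FPKM or above with Ascl2 at 1.64 FPKM or below, whereas Olfm4 spans low and high levels in both.

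The genes whose levels ran most like those of Ascl2 over the 10 libraries were sought among 10575 genes whose mean reached 1 FPKM. They were Nr1h3, which encodes the oxysterol receptor LXRα, Lfng, a glycosyltransferase that modifies Notch receptors, and 2310022B05Rik, with root-mean-square distances of 0.288, 0.300 and 0.319 on the mean-centred log2 scale. The median distance of all genes from Ascl2 was 1.31. For Lgr5 they were Smarca2, a chromatin-remodelling ATPase, 8430419L09Rik and Rnaset2b, at 0.339, 0.348 and 0.349, where the median was 0.980. These distances share the libraries and their depth and are a description.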

How the data were processed

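Poly-A libraries of RNA from jejunal epithelial cells were sequenced for 10 mice (3 control, 4 MYO5B-knockout, 3 LPA-treated). The deposited FPKM were made by the authors, whose processing notes name STAR 2.5, TopHat, HTSeq 0.6.1, DESeq2 and the builds GRCm38 and mm10, with no role or order. The deposited read counts of the authors' own comparisons, with their fold changes and p-values, were used only to check depth, and 9 further per-sample columns that match no sample were not used. From the FPKM, whole reads were recovered for all values within 0.02 of a read, and 63 of 63 deposited counts compared were equal to them. Replicates are separate mice.

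Genes whose mean reached 0.1 FPKM were fitted with limma 3.58.1 (R 4.3.3) with a trended prior on log2(FPKM + 0.1), in 1 model of the 3 groups, two-sided, with Benjamini-Hochberg adjustment over all 15729 genes and a threshold of 0.05. edgeR 4.0.16 and DESeq2 1.42.0 were run on recovered reads, beside other pseudocounts, filters and scalings and fits with libraries left out. The scripts were tested on simulated data. Promoter sequences came from RefSeq. Counting error limits low genes, and FPKM depend on the composition of each library. Each pathway list gave the genes that passed, or else the 2 with the largest change among those of at least 1 FPKM. Wnt3, Wnt6 and Wnt9b were named in any case, because the study chose them for quantitative PCR. The members and lists were chosen with earlier results of these data known.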

Additional observations from a re-analysis of the deposited data

Results flagged for a closer look

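Lrp5, a Wnt co-receptor, had 2.54 FPKM in MYO5B-knockout mouse 3 against 11.8 to 13.3 FPKM in the other 3 MYO5B-knockout mice, so that this library lay apart from its group by Dixon's criterion. It was 1 of 33 groups of values examined, all of them of the 4 MYO5B-knockout mice, and chance sets apart about 1 in 20. Groups of 3 mice were not examined, so control mouse 2 could not be set apart in this way. MYO5B-knockout mouse 3 had 12601 genes detected and held 18.0% mitochondrial reads.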

How the results depend on the processing

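Against control, 316 genes passed in MYO5B-knockout mice (177 higher, 139 lower). The number was 188 with no filter, 598 with median-ratio scaling (223 higher, 375 lower), 50 with only the 2 groups compared, 778 without control mouse 2 and MYO5B-knockout mouse 3, 1032 with the filter then recomputed over the 8 libraries left (chosen after seeing the data), 519 with edgeR (211 higher, 308 lower) and 1756 with DESeq2. Of the 10 genes 0 passed, but 2 did with the recomputed filter and 2 with DESeq2, and of all Wnt and stem cell genes 4 passed, against 0 with 2 groups only, 9 without both libraries, 9 with the recomputed filter and 13 with DESeq2. Between LPA-treated and MYO5B-knockout mice 0 genes passed, and 5 with DESeq2. Between LPA-treated and control mice 365 passed, against 190 with 2 groups only, 1346 without both libraries, 1579 with the recomputed filter and 1475 with DESeq2. Of the 10 genes 1 passed, against 0 with a pseudocount of 0.01, no filter, 2 groups only, the replicate block or edgeR, and 2 without both libraries, with the recomputed filter or with DESeq2. Of the Wnt and stem cell genes 5 passed, against 3 with those same 5 settings, 11 without both libraries, 13 with the recomputed filter and 11 with DESeq2.

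With a mouse left out, the genes that passed numbered 44 (control mouse 5 left out) to 403 (MYO5B-knockout mouse 3 left out) between MYO5B-knockout and control mice, with 0 of the 10 and 0 to 5 of the list genes. Between LPA-treated and control mice they numbered 73 (without LPA-treated mouse 5) to 702 (without MYO5B-knockout mouse 3), with 0 to 1 of the 10 and 1 to 8 of the list genes, and 0 between the induced groups. Directions turned for genes near 0. Rnf43 in MYO5B-knockout mice was -0.12 with scaling, -0.12 with edgeR and -0.14 with DESeq2, and in LPA-treated mice -0.11 with scaling, -0.27 without both libraries, -0.14 with edgeR and -0.17 with DESeq2. Znrf3 in LPA-treated mice was -0.26 with scaling, -0.29 with edgeR and -0.32 with DESeq2. Between the induced groups Lgr5 was -0.011 with a pseudocount of 1, -0.32 without both libraries, -0.13 with edgeR and -0.13 with DESeq2. Without both libraries, with either filter, Sp5 was -0.27 there, Rnf43 -0.29 and Myc -0.39, and with edgeR and DESeq2 Rnf43 was -0.022 and -0.021 and Myc -0.062 and -0.055. With a mouse left out the ranges crossed 0 in MYO5B-knockout mice for Axin2 (-0.50 to 0.30), Rnf43 (-0.36 to 0.54), Znrf3 (-0.018 to 0.81), Olfm4 (-1.54 to 0.50) and Myc (-0.079 to 1.13), and in LPA-treated mice for Rnf43 (-0.27 to 0.63) and Znrf3 (-0.29 to 0.30). Between the induced groups they did for Lgr5 (-0.32 to 0.37), Sp5 (-0.27 to 0.48), Rnf43 (-0.29 to 0.33), Znrf3 (-0.75 to 0.077), Nkd1 (-0.37 to 0.071), Smoc2 (-0.46 to 0.30) and Myc (-0.39 to 0.52). The causes were not tested.

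Mouse numbers shared between groups did not pair the mice, with correlations of deviations of 0.104, 0.300, -0.355 and -0.214, and the replicate block changed no call other than those given. Nkd1 was not tested by edgeR or with the recomputed filter. Few reads limit Lgr5, Nkd1 and the ligands.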
